A study of Callithrix jacchus with 4 samples.

Results

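Oligodendrocyte nuclei of the marmoset primary visual cortex (V1) were compared between the injured and the uninjured brain. The members were the nuclei that the authors' cluster annotation of each cohort named oligodendrocytes, and there were 3584 of them among 38147 nuclei in all (2462 of 29537 injured nuclei and 1122 of 8610 control nuclei). The injured cohort was 3 adult marmosets killed 7 days after injection of endothelin-1, which narrows vessels strongly enough to cause a focal ischemic stroke, and each animal gave 1 library of nuclei (injured replicates 1, 2 and 3 are animals F1619, F1565 and F1711). The control cohort was V1 of 3 adult marmosets that were not injected, deposited as 1 library that its label gives as pooled, which leaves the variation among control animals unmeasured. Only gray matter was taken, so the oligodendrocytes were those of the cortical layers, and the injured tissue held both the core of the lesion and the tissue around it.

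The cohorts differed in more than the injury. Injured nuclei were isolated from pulverized tissue by sucrose ultracentrifugation, control nuclei were homogenized in another lysis buffer and sorted on a DNA dye, and the libraries were sequenced at different facilities on different instruments. Injury and these steps cannot be told apart in any comparison between the cohorts, the tests between cell types included. Comparisons among the 3 injured animals do not cross the cohorts.

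Oligodendrocytes wrap axons in myelin, a stack of membrane rich in lipid and in a few abundant proteins, and they arise from oligodendrocyte precursor cells (OPCs) under the control of factors such as *SOX10* and *OLIG2*. They are sensitive to ischemia, and those that survive near a lesion can meet interferons and other cytokines. Cells that sense interferon switch on antiviral genes, and they raise the machinery of major histocompatibility complex (MHC) class I, which shows peptides of the cell to T cells. NogoA, the product of *RTN4*, is a known inhibitor of neurite outgrowth that oligodendrocytes carry on their surface.

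The annotation was checked against defining markers. The 5 markers of oligodendrocytes (*MBP*, *MOBP*, *UGT8* and *ST18* among them) summed to 11488 to 16724 counts per 1000000 unique molecular identifiers (CPM; a unique molecular identifier, UMI, is a tag that marks 1 captured transcript) in the injured libraries and to 12027 in control, and each marker was detected in all 4 libraries. Relative to all other nuclei of the injured libraries, *MOBP* was 37.4 times and *ST18* 107 times as high. Summed markers of OPCs were between 115 and 150 CPM in injured and 191 in control oligodendrocytes, those of astrocytes between 226 and 251 against 175, those of endothelial cells between 75.8 and 118 against 39.1, those of inhibitory neurons between 37.9 and 58.6 against 22.7 and those of microglia between 233 and 309 against 75.2. Most of the microglial difference came from *CD74*, since the other 3 microglial markers listed in both cohorts (*P2RY12*, *DOCK8* and *GPR34*) summed to 66.2 to 80.6 in the injured libraries and to 72.8 in control. The remaining microglial marker, *C1QB*, stood at 65.4, 46.1 and 39.8 CPM in the injured libraries and was not among the genes listed for control, so it is in none of these sums. *GFAP*, which defines astrocytes, had no UMI in control oligodendrocytes and 3.21 to 11.5 CPM in the injured libraries. Of the 6 astrocyte markers, 5 had every injured animal above control and 1 had every one below. Their median log2 fold change in the fit described below was 2.16 (1.57 with the 1 gene without a control UMI set to its bound). The 6 markers of excitatory neurons were lower in injured oligodendrocytes, at 749 to 1029 CPM against 1736.

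The control sum of neuronal markers came largely from 1 small cluster. Of 1122 control oligodendrocytes, 68 formed a cluster of their own with a median of 3169.5 UMIs per nucleus, against 871.5 in the 1054 nuclei of the main control cluster, and these 68 nuclei gave 19.5% of the control UMIs. The neuronal gene *RBFOX3* stood at 798 CPM in them and at 13.6 in the main cluster, whereas *MOBP* stood at 605 and 1838. In the injured cohort, 2359 of 2462 oligodendrocytes were in 1 cluster, and 23 nuclei formed a cluster with *RBFOX3* at 957 CPM. The comparisons between the cohorts and the tests between cell types were therefore also computed on the largest cluster of each cohort alone, an alternative chosen after the data were seen, and it is given where it changed the calls of a list.

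Depth also differed between the cohorts. Median UMIs per oligodendrocyte were 3064, 1950 and 2411 in the 3 injured replicates in order, against 900 in control, and the oligodendrocytes of a library held 1277264 to 2277433 UMIs in all. At least 2 different markers of another cell type were found in 56.9%, 41.4% and 47.5% of the injured nuclei and in 12.5% of the control nuclei. Of 38022 distinct barcodes, 125 occurred in more than 1 library, of which 1 belonged to oligodendrocytes in both.

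Oligodendrocytes were a smaller share of the injured than of the control nuclei, but the difference depended on which nuclei were counted. They made up 9.47%, 8.54% and 7.17% of nuclei in the injured animals (8.39% ± 1.15, SD, n = 3) and 13% in control (exact 95% interval 12.3 to 13.8%). All 3 injured values lay below control. Among nuclei with at least 1000 UMIs the order turned, with 8.57% ± 1.32 in injured and 6.57% in control, and without microglia in the denominator the injured values of 15.2%, 10.9% and 9.35% lay on both sides of 13.2% in control. With 3 animals against 1 pool an exact rank test could not give a two-sided p below 0.5, so the shares are a description.

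For expression, UMIs were summed over the oligodendrocytes of each library and fitted in edgeR, whose quasi-likelihood p-values were given Benjamini-Hochberg adjustment over all 11631 genes tested. Only genes listed for both cohorts could be tested, and every gene listed for control had a UMI in control nuclei. The counts and list medians below therefore leave out genes that control did not list, while genes without any injured UMI stayed in. The lone control library was assumed to vary as the injured ones do. To be called, a gene needed an adjusted p below 0.01, detection in 10% or more of oligodendrocytes in 1 cohort at least, and a fold change whose natural log was beyond 0.25 in size. In this comparison, counts given at an adjusted p below 0.05 kept the limits on detection and fold. On that rule 72 genes were higher in injured oligodendrocytes (0.619% of the genes tested) and 18 were lower (0.155%), 0.774% together. With 1 injured animal left out the counts ranged from 36 to 147 higher and from 12 to 36 lower. All 90 lay on the same side of control in each of the 3 animals. For scale, 33.2% of all genes tested had every injured animal above control and 43.3% had every one below, and 3582 genes had an unadjusted p below 0.05. The median fold change of all genes tested was 0.024 on the log2 scale after scaling of the libraries, which places the bulk of genes near 0. With library size alone it was -0.075. Changes are read relative to the scaled centre.

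**Figure D1:**
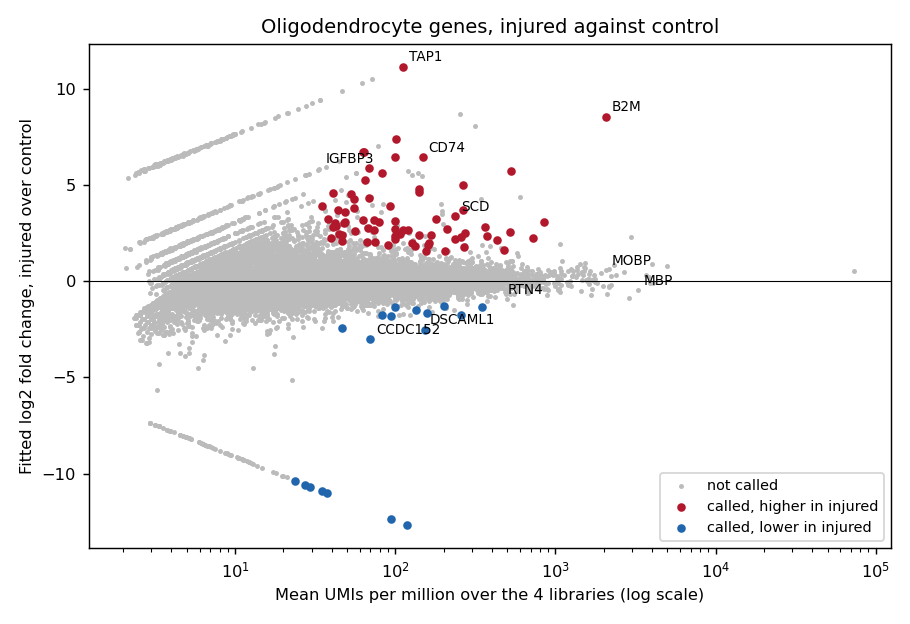
Fitted log2 fold change of each of the 11631 genes tested in oligodendrocytes (vertical axis, injured over control) against its mean level in CPM over the 4 libraries (horizontal axis, log scale). Red points are the 72 genes called higher and blue points the 18 called lower, grey points are not called, and the diagonal rows at the left hold genes with few or no UMIs in 1 cohort.

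Genes of MHC class I presentation were among the rises. Of 16 genes of this list tested, 6 were called higher and none lower, all 16 had a positive fold change, and the median was 3.45 on the log2 scale (2.97 with the 3 genes that had no control UMI set to their bound). The 6 were *B2M*, *TAP1*, *NLRC5*, *CAJA-E*, *CALR* and *CANX*.

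*B2M*, the shared light chain of all class I molecules, stood at 2982, 3328 and 1945 CPM in injured replicates 1, 2 and 3 and at 7.83 in control (10 UMIs). Every injured animal lay far above control, and the fitted change was 372-fold (log2 fold change 8.54, SE 0.50, adjusted p = 0.00138). Oligodendrocytes with at least 1000 UMIs (693 of 710, 987 of 1070 and 637 of 682 injured, but 467 of 1122 control) were thinned to 1000 UMIs, and shallower ones were left out. Of the nuclei kept, 82.8% ± 8.01 (SD, n = 3) of injured ones held a *B2M* UMI, against 1.07% of control ones (exact 95% interval 0.349 to 2.48%). *B2M* UMIs were also more frequent in other injured nuclei. Control *B2M* stood at 5.35 to 8.09 CPM in every other cell type except endothelial cells (98.0, 20 UMIs), with 1 UMI each in OPCs and microglia. Whether *B2M* was counted alike in the cohorts was not tested, and the fold change carries that limit. At the deposited depth, which is not matched to the thinned nuclei above, 95.5% of injured excitatory neurons also held a *B2M* UMI, against 2.0% of control ones. By mean level the injured neurons held 815 CPM, against 2752 in injured oligodendrocytes. The level in the injured oligodendrocytes was 1.07 times that in all other nuclei of those libraries. Endothelial nuclei had the highest mean, 10175 CPM, and the part of RNA from other cells in the share of oligodendrocytes with a UMI was not tested. In the annotation of a newer marmoset assembly (calJac240) *B2M* overlaps PATL2.

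*NLRC5*, the transactivator of class I genes, stood at 342, 501 and 201 CPM in the injured animals and 11.7 in control (log2 fold change 4.98, SE 0.65, adjusted p = 0.00868). *CAJA-E*, listed here as the marmoset form of the class I gene *HLA-E*, stood at 191, 247 and 116 and 7.83 (log2 fold change 4.64, SE 0.57, adjusted p = 0.00705). Both were highest in replicate 2 and lowest in replicate 3, with no overlap with control. *TAP1*, one part of the pump that brings peptides to class I molecules, had 158, 207 and 82.3 CPM in the injured animals and no UMI in control oligodendrocytes, so that it was at least 65.8-fold higher, taking 3 UMIs over the control library as the floor (adjusted p = 0.00767). For *TAP2*, the partner of *TAP1*, the levels were 4.4, 10.1 and 3.58 against 0.783 CPM, and the test was not passed (adjusted p = 0.154). Without injured replicate 1 only 2 of the 6 calls of this list were made, and over all genes 36 rather than 72 were called higher.

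The chaperones of the endoplasmic reticulum that help class I molecules fold were also called. *CALR* stood at 164, 142 and 143 CPM against 25.1 in control (log2 fold change 2.68, SE 0.23, adjusted p = 0.00273), and *CANX* at 124, 100.3 and 103 against 31.3 (log2 fold change 1.90, SE 0.24, adjusted p = 0.00819). These 2 genes varied less among the injured animals than *NLRC5* and *CAJA-E* did. In edgeR tests of whether the cohort difference of oligodendrocytes differed from that of OPCs, astrocytes or excitatory neurons, the 16 class I genes had an adjusted p of 0.12 or above. Few control UMIs limit these tests. *B2M*, *CAJA-E* and *TAP1* had 1 UMI each in control OPCs, with SEs of 1.27, 2.0 and 5.88 on the log2 scale, so large differences could be missed. Against excitatory neurons 4 of the 16 had an unadjusted p below 0.05 (1631 of all 13718 genes did), with a list median of 1.08.

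Genes of MHC class II, which is known from microglia and other professional antigen-presenting cells, were detected in injured oligodendrocytes as well. Of 8 tested, 2 were called higher and none lower, and the median was 6.09 (3.60 with the 2 genes without a control UMI at their bound). *CD74*, the invariant chain, stood at 228, 197 and 167 CPM against 2.35 in control (3 UMIs), a ratio of 85.2 (95% counting interval 29.1 to 414) with adjusted p = 0.00138. *CAJA-DRA*, the alpha chain of the class II molecule DR, stood at 106, 80.6 and 61.4 against 0.783 (1 UMI), a ratio of 108 (95% counting interval 19.4 to 4287) with adjusted p = 0.00441. Both were highest in replicate 1 and lowest in replicate 3, with no overlap with control. In microglia of the injured libraries these genes were higher, since the oligodendrocyte level of *CD74* was 16.3% and that of *CAJA-DRA* 13.1% of the microglial level. In control microglia each of these 2 genes had 1 UMI (8.03 CPM), and whether they were counted alike in the cohorts was not tested. At the deposited depth *CD74* had a UMI in 37.6% of injured oligodendrocytes and in 45.2% of injured excitatory neurons. Those shares are not matched for depth, and the mean levels were 197 and 117 CPM. The part of RNA from other cells in these 2 rises was not tested. *CIITA*, the transactivator of class II genes, stood at 48.9, 77.4 and 19.1 against 0.783 CPM and did not pass the test (adjusted p = 0.0398).

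**Figure D2:**
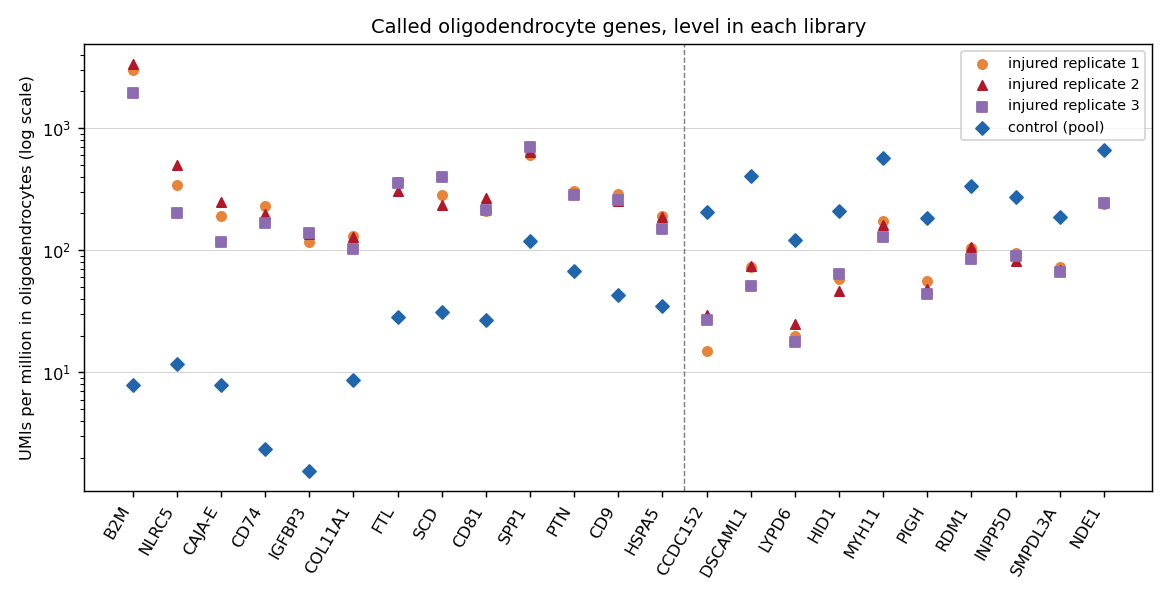
Level of 23 called genes in the oligodendrocytes of each library, in CPM on a log scale, with 1 point for each of the 3 injured animals and a blue diamond for the control pool. Left of the dashed line are 13 genes called higher, for which all injured points lie above control, and right of it 10 called lower, for which all lie below.

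In the interferon response list every fitted difference was positive, while 1 gene passed the rule. All 51 genes tested had a positive fold change, 45 of them had every injured animal above control (33.2% of all genes did), and the median was 3.65 on the log2 scale (3.33 with the 5 genes without a control UMI at their bound). At an adjusted p below 0.01 there was 1 call, and at an adjusted p below 0.05 there were 17 (of all genes, 4.32% were called at that limit, 3.03% higher and 1.28% lower).

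Several members had a wide spread between animals. *MX1*, an antiviral GTPase, stood at 249, 640.4 and 112 CPM against 0.783 in control (1 UMI, a ratio of 448 (95% counting interval 80.4 to 17717), adjusted p = 0.0306). *IFIT1*, which binds foreign RNA, stood at 137, 345 and 64.4 against 3.91 (log2 fold change 5.61, SE 1.34, adjusted p = 0.0438), and *IRF1*, a factor that interferons induce, at 154, 255 and 63.2 against 3.13 (log2 fold change 5.72, SE 1.12, adjusted p = 0.0263). In each of these genes injured replicate 2 was highest and replicate 3 lowest. *DDX60*, an RNA helicase, stood at 646, 1499.8 and 212 against 39.9 and had adjusted p = 0.0552. The smallest differences among the 17 were those of *DHX58* (385, 539 and 331 against 123, log2 fold change 1.86, SE 0.29, adjusted p = 0.015) and *HERC6* (441, 578 and 283 against 164, log2 fold change 1.49, SE 0.37, adjusted p = 0.0466), which control oligodendrocytes already expressed.

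The number of calls depended on which animals were in the fit. Without injured replicate 1 no interferon gene was called, without replicate 2 there were 15 and without replicate 3 there were 23. DESeq2 called 17. Calls over all genes moved too, with 36 of 11151 genes tested called higher without replicate 1, against 72 of 11631 in the main fit. They were 147 of 11210 without replicate 2, 142 of 11701 without replicate 3 and 170 of 11631 with DESeq2. In the largest cluster of each cohort 3 genes were called, *IFI6* and *PARP9* among them (1.01% of all genes were called higher there).

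Between the injured animals the interferon genes formed a clear order. Of the 43 list genes with at least 100 UMIs in injured oligodendrocytes, 42 were highest in replicate 2 and 43 lowest in replicate 3, and 40 differed by a fold of at least 2 with separate 95% Poisson intervals (6.12% of the 7495 genes with that many UMIs did). Summed over the list, the level was 6338, 11459 and 3317 CPM in replicates 1, 2 and 3 and 1074 in control. OPCs had 9617, 23280 and 7304 CPM, astrocytes 10378, 20890 and 6795 and excitatory neurons 3850, 5720 and 1836. The order of the animals was thus the same in all 7 cell types. The median ratio of highest to lowest animal over the 43 genes was 3.39 in oligodendrocytes and 2.14 in all other nuclei together, where over all 7495 genes it was 1.27 and 1.21. The other nuclei are a mix of cell types that differs between animals. By cell type, the ratio of the summed list level was 3.45 in oligodendrocytes, 3.19 in OPCs, 3.12 in excitatory neurons and 3.07 in astrocytes. It was 2.79 in inhibitory neurons, 2.59 in endothelial cells and 2.19 in microglia.

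Single nuclei at equal depth gave the same order of libraries. With 500 UMIs drawn from each oligodendrocyte, the median number of different interferon list genes with a UMI was 2, 4 and 1 in replicates 1, 2 and 3 and 0 in control. At least 3 such genes were found in 46.8% of nuclei in replicate 1 (exact 95% interval 43 to 50.5%), in 78.2% in replicate 2 (75.6 to 80.7%), in 20.7% in replicate 3 (17.7 to 23.9%) and in 1.52% in control (0.885 to 2.41%). The intervals cover counting error within a library, and nuclei are not replicates of an animal or a condition. Nuclei with fewer than 2 markers of any other cell type gave 46.4%, 76.4%, 21.3% and 1.63%. In replicate 3, the 57 nuclei of a smaller oligodendrocyte cluster were lower still, with at least 3 such genes in 5.26% of them, against 22% in the main cluster of that animal.

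**Figure D3:**
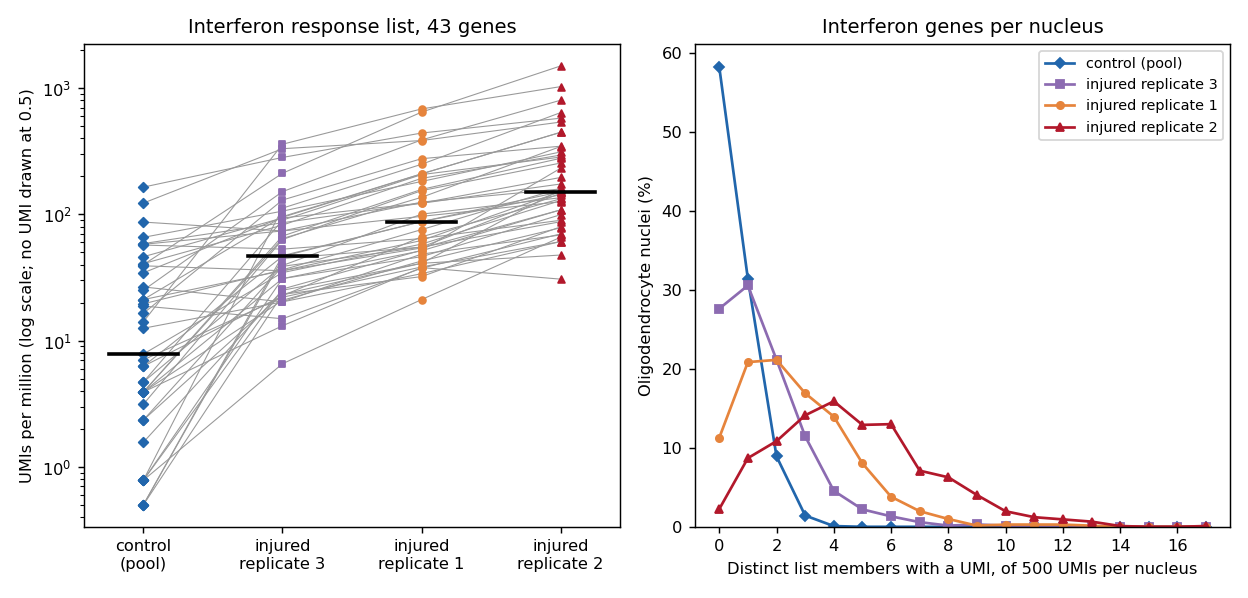
Left, level of the 43 interferon list genes with at least 100 UMIs in injured oligodendrocytes (CPM, log scale), with a gray line for each gene and a black bar at the median of each library. Right, share of oligodendrocyte nuclei (percent) by the number of different list genes with a UMI among 500 UMIs drawn from the nucleus. Control is lowest and replicate 2 highest in both.

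No interferon gene had an adjusted p below 0.01 for a difference between the oligodendrocyte change and that of OPCs, astrocytes or excitatory neurons. Against excitatory neurons 2 of 51 had an adjusted p below 0.05, and against OPCs and astrocytes none did in edgeR, with 19, 9 and 6 genes at an unadjusted p below 0.05. Over all 13718 genes, 82 had an adjusted p below 0.05 against excitatory neurons. In the same order of cell types, 1631, 1579 and 1741 of all genes had an unadjusted p below 0.05 in edgeR.

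Chaperones of the endoplasmic reticulum were among the rises. *HSPA5*, the main chaperone of the endoplasmic reticulum, stood at 192, 188 and 148 CPM against 35.2 in control (log2 fold change 2.42, SE 0.24, adjusted p = 0.0041). *HSP90B1*, its HSP90-type partner, stood at 194, 235 and 197 against 43.1 (log2 fold change 2.37, SE 0.22, adjusted p = 0.0035). Both separated all injured animals from control. Both also had a higher injured than control mean in every other cell type, such as 272 against 80.25 CPM (*HSPA5*) and 208 against 42.8 (*HSP90B1*) in OPCs. With *CALR* these were 3 of 21 genes of the unfolded protein and integrated stress list, none of which was called lower, and the list median was 1.43. Among the 17 heat shock genes tested, *CRYAB* alone was called. *CRYAB*, a small heat shock protein that mature oligodendrocytes make, stood at 217, 202 and 169 against 54 (log2 fold change 1.96, SE 0.21, adjusted p = 0.0048).

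Of 19 genes tested from a list of genes known from oligodendrocytes in disease, 6 were called higher and none lower (median 2.73), namely *B2M*, *CD74*, *IGFBP3*, *CD9*, *CD63* and *S100A6*. The lists overlap, so that *B2M*, *CD74*, *CD9*, *IGFBP3*, *S100A6*, *CALR* and *CRYAB* are each counted in more than 1. *IGFBP3*, which binds insulin-like growth factors, stood at 118, 136 and 139 CPM against 1.57 in control (2 UMIs), a ratio of 83.1 (95% counting interval 22.9 to 688) with adjusted p = 0.00141. It varied little among the injured animals. It was present in other injured cells as well, with a mean of 521 CPM in OPCs and 483 in endothelial cells. *S100A6*, a calcium-binding protein, stood at 196, 115 and 90.0 against 0.783 (1 UMI, a ratio of 177 (95% counting interval 31.6 to 6986), adjusted p = 0.00678), and *CD63*, a tetraspanin of lysosomes and exosomes, at 112, 69.6 and 89.4 against 1.57 (2 UMIs, a ratio of 57.9 (95% counting interval 16 to 479), adjusted p = 0.0041). Both were highest in replicate 1. The higher levels were not limited to oligodendrocytes. In injured OPCs *S100A6* had a mean of 306 CPM and *CD63* one of 153, in endothelial cells 483 and 218, and in excitatory neurons 26.1 and 17.3, and each of these means was above the control level of its cell type. *CD9* stood at a mean of 268 CPM in injured OPCs against 69.6 in control, and at 9.18 against 0.819 in excitatory neurons. *SERPINA3*, a protease inhibitor that marks reactive glia, stood at 148, 62.3 and 115 against 7.05 and had adjusted p = 0.0169.

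Of 20 tested genes on cytoskeleton and matrix after injury, 4 were called higher (*SPP1*, *SAT1*, *S100A6* and *ACTB*) and none lower, with a median of 2.08. *SPP1*, the secreted phosphoprotein osteopontin, stood at 603, 634 and 703 CPM against 119.8 in control (log2 fold change 2.53, SE 0.20, adjusted p = 0.00235). At the deposited depth, which is not matched between cohorts or cell types, 66% of injured oligodendrocytes held an *SPP1* UMI against 12.4% of control ones. Of injured excitatory neurons, 21.4% did. Mean *SPP1* was also higher in injured than in control nuclei of every other cell type. It stood at 847 against 42.8 CPM in OPCs (8 control UMIs) and at 348 against 14.7 in endothelial cells (3 control UMIs). *SAT1*, an enzyme of polyamine breakdown, stood at 134, 153 and 114 against 26.6 (log2 fold change 2.43, SE 0.26, adjusted p = 0.00458), at 0.196 times the level of all other nuclei. *VIM*, an intermediate filament protein, had 88.1, 33 and 63.2 CPM and no UMI in control, at least 26.3-fold higher, with adjusted p = 0.0163, and *CD44*, a receptor for hyaluronan, had 63.9, 36.2 and 39.9 against 3.91 with adjusted p = 0.0152. Without injured replicate 1 the calls of this list fell from 4 to 2, and the higher calls over all genes fell from 72 to 36.

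*COL11A1*, a fibrillar collagen, stood at 131, 128 and 103 CPM against 8.61 (log2 fold change 3.90, SE 0.30, adjusted p = 0.00235), and *CD81*, a tetraspanin that overlaps TRPM5 in the newer annotation, at 209.7, 266 and 213 against 26.6 (log2 fold change 3.20, SE 0.26, adjusted p = 0.00235). *PTN*, a growth factor that acts on glia and axons, stood at 303, 288 and 285 against 68.1 (log2 fold change 2.20, SE 0.18, adjusted p = 0.00235). The 3 injured animals lay close together in each of these genes. *CD81* also had a higher injured than control mean in every other cell type, such as 333 against 48.15 CPM in OPCs. *COL11A1* did so in all but endothelial cells (129 against 181), with 217 against 19.7 in astrocytes and 186 against 17.8 in excitatory neurons. *PLAT*, the tissue plasminogen activator, stood at 69.6, 82 and 56 against 3.13 (log2 fold change 4.54, SE 0.45, adjusted p = 0.00423), and *HTRA1*, a secreted protease, at 576, 494 and 627 against 200.4 (log2 fold change 1.60, SE 0.21, adjusted p = 0.0089). *HTRA1* and *PTN* were 7.12 and 3.56 times as high in injured oligodendrocytes as in all other nuclei, whereas *PLAT* was at 0.827 times.

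*FTL*, the light chain of the iron store ferritin, stood at 365, 307 and 356 CPM against 28.2 in control (log2 fold change 3.70, SE 0.24, adjusted p = 0.00141), and it was the only one of 19 tested genes of the iron and oxidative stress list that was called. *EEF2*, the elongation factor of translation, stood at 85.5, 76 and 79.9 against 9.4 (log2 fold change 3.19, SE 0.29, adjusted p = 0.0035). *FTL* and *EEF2* also had a higher injured than control mean in every other cell type, such as 156 against 13.5 CPM and 58.7 against 14.2 in excitatory neurons. Of 64 ribosomal protein genes tested, 6 were called higher and none lower, 50 had a positive fold change and the median was 1.05. These short and abundant transcripts have processed copies in the genome, and reads can be split between copies. *ARHGAP15*, a regulator of the GTPase RAC that microglia express highly, stood at 99.1, 81.1 and 103 against 11 (log2 fold change 3.20, SE 0.32, adjusted p = 0.00441), and the injured oligodendrocyte level was 3.83% of the microglial one. The 3 microglial markers other than *CD74* that both cohorts list were at about the control level, and *C1QB* was detected in the injured libraries (above). The part of microglial RNA in this rise was not tested. Of the 72 genes called higher, 30 were higher in injured oligodendrocytes than in all other injured nuclei together. The share of all genes tested for which this held was not computed, so the 30 are a description only. Among nuclei with fewer than 2 markers of any other cell type, 66 of the 72 were called again. With nuclei thinned to 1000 UMIs 48 of the 72 were called again, and without injured replicate 1 there were 35.

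Transcripts of compact myelin proteins lay on both sides of control. Of 12 genes of the list tested, *CD9* alone was called higher, none was called lower, 8 had a positive fold change and the median was 0.46. *CD9*, a tetraspanin of myelin, stood at 289, 255 and 256 CPM against 43.1 in control (log2 fold change 2.73, SE 0.20, adjusted p = 0.00235).

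*MBP*, which glues the inner faces of the myelin membrane together, lay the other way, at 3089, 2482 and 3182 CPM against 4332 (log2 fold change -0.47, SE 0.20, adjusted p = 0.154). All 3 injured animals were below control, but the test was not passed. *MOBP*, the marker that defines these nuclei, stood at 1761, 1894 and 2959.8 against 1597 (log2 fold change 0.57, SE 0.32, adjusted p = 0.267). The highest *MOBP* level was in replicate 3. *MAL*, a proteolipid of myelin sorting, stood at 1624, 1422 and 1880.2 against 1044 (log2 fold change 0.75, SE 0.21, adjusted p = 0.0659) and *CLDN11*, the claudin of the tight junctions of myelin, at 630.3, 679.8 and 758 against 401 (log2 fold change 0.88, SE 0.19, adjusted p = 0.0327). *OPALIN*, a membrane protein of mature oligodendrocytes, stood at 178, 222 and 209 against 269 and *CNP*, a phosphodiesterase of uncompacted myelin, at 18.1, 17.4 and 22.1 against 46.2, with adjusted p = 0.293 and 0.0416. Other lists held a single call each: *CADM4*, an adhesion molecule between glia and axon, was the only one of 23 genes of paranodes and axoglial contact (151, 100.3 and 124 against 20.4, log2 fold change 2.71, SE 0.33, adjusted p = 0.00698), and *CRYAB* the only one of 15 genes of the inner myelin tongue and its cytoskeleton.

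Genes of lineage and maturation were not called when all oligodendrocytes were used. Of 18 transcription factors tested, 8 had a positive fold change and the median was -0.086. *SOX10*, the factor that holds the lineage, stood at 99.5, 91.6 and 93 CPM against 162 (log2 fold change -0.68, SE 0.17, adjusted p = 0.0468), and *SOX2*, a factor of immature glia, at 63.4, 79.3 and 72.1 against 151 (log2 fold change -0.98, SE 0.20, adjusted p = 0.0277). All injured animals were below control in both, and in the largest cluster of each cohort both were called lower (log2 fold change -1.0 with adjusted p = 0.00945, and -1.26 with 0.00818). *SLC5A11*, a transporter of inositol and sugars that these cells express highly, also became a call there (2509, 2119 and 2289.7 against 4557, log2 fold change -0.88 with adjusted p = 0.0215 in all nuclei and -1.20 with 0.00355 in the largest clusters). Levels of *MYRF*, the factor that drives myelin genes, were 186, 170.4 and 191 against 209.8 (log2 fold change -0.10, SE 0.17, adjusted p = 0.704), and *OLIG2* stood at 36.6, 25.2 and 29.2 against 23.5 (log2 fold change 0.47, SE 0.32, adjusted p = 0.357). None of 13 genes of the premyelinating stage and 15 genes of OPCs was called (medians 0.095 and 0.41). With the limit at an adjusted p below 0.05 there was 1 call, in the OPC list, lower in injured. Among 25 ion channels and gap junction genes none was called over all nuclei. In the largest clusters *KCNMB4*, a subunit of calcium-activated potassium channels, and *GRIA2*, a glutamate receptor subunit, were called higher and *SLC5A11* of this list lower, as given above (*KCNMB4* and *GRIA2* had log2 fold change 1.59 with adjusted p = 0.00822, and 1.33 with 0.00769, against 1.5 with 0.0165 and 0.49 with 0.184 over all nuclei). Over all nuclei, *SLC24A2*, an exchanger of sodium, calcium and potassium, stood at 4776, 4234 and 4466 against 2586 (log2 fold change 0.90, SE 0.17, adjusted p = 0.0259). The neuronal gene *RBFOX3* was lower in injured oligodendrocytes by fitted value over all nuclei (log2 fold change -1.13, adjusted p = 0.0381) and higher in the largest clusters (1.89, adjusted p = 0.0085). The median log2 fold change of the 6 markers of excitatory neurons likewise went from -0.81 to 1.33. The part of neuronal RNA in the *GRIA2* call was not tested.

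**Figure D4:**
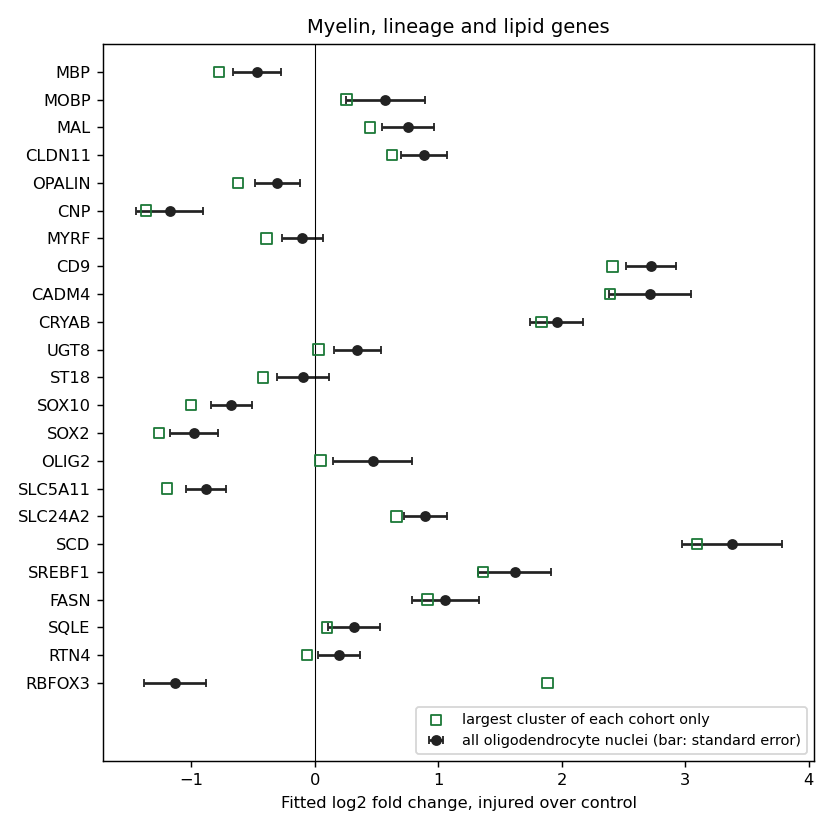
Fitted log2 fold change (injured over control) of myelin, lineage, lipid and comparison genes. Black circles with bars are the value and its standard error over all oligodendrocytes, and green squares are the value in the largest cluster of each cohort. Squares lie to the left of the circles in every gene but *RBFOX3*, and *RBFOX3* and *RTN4* change sign.

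A single gene of lipid synthesis was called. *SCD*, the desaturase that makes monounsaturated fatty acids, stood at 284, 234 and 395 CPM against 31.3 in control (log2 fold change 3.38, SE 0.40, adjusted p = 0.00652). All 3 animals lay above control, and the level was 13.6 times that of all other injured nuclei. Among oligodendrocytes with at least 1000 UMIs (467 of 1122 in control), thinned to 1000, 22% ± 3.89 (SD, n = 3) of injured and 4.07% of control ones held an *SCD* UMI. It was the only gene called of 24 in the galactolipid, sphingolipid and fatty acid list (median 0.51), and at an adjusted p below 0.05 there were 6 higher calls and none lower. *SREBF1*, the factor that drives fatty acid synthesis, stood at 133, 90.2 and 120.4 against 39.9 (log2 fold change 1.62, SE 0.30, adjusted p = 0.0218), and *FASN*, the fatty acid synthase, at 40.5, 38.5 and 39.9 against 20.4 (log2 fold change 1.06, SE 0.27, adjusted p = 0.0515). *UGT8*, which makes the galactolipids of myelin, did not pass the test, at 1082, 831 and 992 against 817 (log2 fold change 0.34, SE 0.19, adjusted p = 0.258).

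None of 24 cholesterol synthesis genes was called, and 1 was called higher at an adjusted p below 0.05 (median 0.36). *SQLE*, the squalene epoxidase, stood at 68.3, 77.9 and 69.7 CPM against 61.9 (log2 fold change 0.32, SE 0.21, adjusted p = 0.339). All 3 animals lay above control, without passing the test.

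*RTN4* did not pass the test in oligodendrocytes. It stood at 1424, 1242 and 1429.5 CPM in injured replicates 1, 2 and 3 and at 1276 in control (log2 fold change 0.20, SE 0.17, adjusted p = 0.456), and replicate 2 lay slightly below control. Among oligodendrocytes with at least 1000 UMIs (467 of 1122 in control), thinned to 1000, 71.4% ± 2.55 (SD, n = 3) of injured and 69.4% of control ones held an *RTN4* UMI. The injured level was 2.94 times that of all other nuclei. In the largest clusters the fitted value turned to -0.062. In astrocytes of the same libraries the pooled level was 675 CPM in injured and 205 in control nuclei, and the cohort difference of oligodendrocytes minus that of astrocytes was -1.61 (SE 0.28, adjusted p = 0.0192 in edgeR over 13718 genes), which became a call in the largest clusters (-1.89, adjusted p = 0.00286). Against OPCs and excitatory neurons the adjusted p was 0.178 and 0.203. The files hold 1 count per gene, so NogoA cannot be separated from the shorter products of *RTN4*.

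Other fixed lists held no or few calls. None of 9 complement genes, 15 genes of p53 and cell death, 22 of hypoxia and glycolysis, 14 of cholesterol efflux and lipid uptake and 12 immediate early genes was called, with medians of 2.06, 1.0, 0.42, 0.63 and 2.49. In the largest clusters 1 gene of the efflux list was called, *NPC2*, a carrier of cholesterol in lysosomes (log2 fold change 2.38 with adjusted p = 0.00549, and 2.50 with 0.0105 over all nuclei). Of 37 growth factor and cytokine signalling genes, *IGFBP3* alone was called. At an adjusted p below 0.05 these 6 lists held between 0 and 4 higher calls each and none lower.

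Of the 18 genes called lower, 11 had UMIs in injured nuclei. The other 7 were without a single UMI across all injured nuclei, whatever the cell type, and 84 of the genes tested were of this kind (among them *ZMYND11*, *RAD50* and *TRMT13*, with 120, 176 and 190 UMIs in control oligodendrocytes). Whether the 2 gene lists were counted alike for these genes was not tested, and they are not read as falls.

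The largest fall among the 11 was that of *CCDC152*, with 15, 29.8 and 26.8 CPM in the injured animals and 207 in control (log2 fold change -3.02, SE 0.31, adjusted p = 0.00442). In the newer annotation *CCDC152* overlaps *SELENOP*, a selenium carrier, so its reads are uncertain. *DSCAML1*, an adhesion molecule of the immunoglobulin family, stood at 73.6, 74.7 and 50.7 against 408 (log2 fold change -2.52, SE 0.20, adjusted p = 0.00235). All 3 injured animals lay well below control. *LYPD6*, a modulator of acetylcholine receptors and Wnt signalling, stood at 19.8, 24.7 and 17.9 against 121 (log2 fold change -2.44, SE 0.23, adjusted p = 0.0035), and *HID1*, a protein of the Golgi and of dense core vesicles, at 58.1, 46.3 and 63.8 against 208 (log2 fold change -1.80, SE 0.21, adjusted p = 0.00652).

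*MYH11*, a myosin heavy chain best known from smooth muscle, stood at 173, 161 and 129 against 568 (log2 fold change -1.78, SE 0.17, adjusted p = 0.0035), and *NDE1*, which binds dynein, at 240.1, 248 and 242 against 660.0 (log2 fold change -1.34, SE 0.14, adjusted p = 0.00442). These 2 genes overlap in the newer annotation, so their falls may not be separate. In injured oligodendrocytes *NDE1* was still 13.1 times and *MYH11* 6.17 times as high as in all other nuclei. *PIGH*, an enzyme of the lipid anchor of membrane proteins, and *RDM1*, which takes part in DNA repair, stood at 56.4, 48.1 and 44.1 against 182 and at 105, 107 and 84.7 against 333 (log2 fold changes -1.78, SE 0.19, and -1.65, SE 0.17). *PIGH* overlaps PLEKHH1 and *RDM1* overlaps 2 unnamed loci in the newer annotation, so their reads are uncertain too. *INPP5D*, a phosphatase of inositol lipids known from microglia, stood at 95.1, 81.1 and 90.0 against 271 (log2 fold change -1.51, SE 0.16, adjusted p = 0.0048), and *SMPDL3A*, a phosphodiesterase related to acid sphingomyelinase, at 72.7, 69.2 and 66.2 against 189 (log2 fold change -1.34, SE 0.16, adjusted p = 0.00701). *LYPD6*, *INPP5D* and *SMPDL3A* also overlap unnamed loci there. No injured animal overlapped control in the falls named here, which the naming rule required. Lower levels were not limited to oligodendrocytes. Of the falls named above, all but *PIGH* also had a lower mean in injured than in control excitatory neurons. *RDM1* stood there at 117 against 301 CPM, *HID1* at 43.6 against 123, *INPP5D* at 98.6 against 225 and *PIGH* at 39.2 against 32.6. In the largest clusters all 18 genes were called lower again, among 65 in all (0.575% of 11313 genes tested there). With nuclei thinned to 1000 UMIs 16 of the 18 were called again, and without injured replicate 1 there were 12.

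Tests of the difference between cell types asked where the cohort difference of oligodendrocytes was unlike that of OPCs, astrocytes and excitatory neurons of the same libraries, with library as a block. At an adjusted p below 0.01 the difference was larger (more positive) in oligodendrocytes for 1, 5 and 2 of 13718 genes (0.00729%, 0.0364% and 0.0146%) and smaller for 3, 5 and 3 (0.0219%, 0.0364% and 0.0219%). At an unadjusted p below 0.05 there were 1579, 1741 and 1631 genes. Without injured replicate 1 or 3 the counts fell to between 0 and 3 in each of the 3 comparisons, so single genes are given as values of this fit. Of the 19 calls, 15 had at least 10 UMIs in every group compared and are described here.

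The other 4 were outside the naming rule and were named after their values were seen. They were *GLIS3* against OPCs (2 control UMIs in OPCs) and, against astrocytes, *PRODH* (9 control UMIs in oligodendrocytes, interaction 4.33, SE 0.34), *SERPINB9* (no control UMI in astrocytes) and 1 gene without a symbol (4 control UMIs in oligodendrocytes). *PRODH*, an enzyme of proline breakdown, stood at 183 CPM against 7.05 in oligodendrocytes and at 192 against 151 in astrocytes.

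Against OPCs, *COL11A1* had the larger rise in oligodendrocytes. Its level over the pooled injured nuclei was 122 CPM against 8.61 in control oligodendrocytes, and 306 against 203 in OPCs (interaction 3.18, SE 0.43, adjusted p = 0.00901). The precursor cells thus already had it in control. *EML6*, a microtubule-associated protein, lay the other way, with 193 against 191 in oligodendrocytes and 1620.3 against 102 in OPCs (19 control UMIs in OPCs, interaction -4.0, SE 0.39, adjusted p = 0.000778), and so did *BICD1*, an adaptor of dynein (145 against 265, and 601 against 273, interaction -2.05, SE 0.27, adjusted p = 0.0075). In the largest clusters the values of *EML6* and *BICD1* had adjusted p = 0.0154 and 0.0194.

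Against astrocytes, *PTN* had the larger rise in oligodendrocytes, at 293 CPM against 68.1 in oligodendrocytes and 334 against 295 in astrocytes (interaction 1.96, SE 0.22, adjusted p = 0.00235). *ATL2*, which shapes the endoplasmic reticulum, and *RFWD2*, a ubiquitin ligase, were close to control in oligodendrocytes and lower in injured astrocytes, at 111 against 452 and 688 against 2352 CPM (interactions 1.92 and 1.74). *LIPA*, the lysosomal acid lipase, stood at 251 against 225 in oligodendrocytes and 526 against 94.8 in astrocytes (interaction -2.39, SE 0.30, adjusted p = 0.00354). In these 3 genes the oligodendrocyte levels of the cohorts were close, and the astrocyte levels were apart. *ACTN1* and *PALLD*, which bundle and organize actin, and *COL22A1*, a collagen, were higher in injured astrocytes and lower in injured oligodendrocytes by value (interactions -2.96, -2.66 and -4.50). For *ACTN1* the interaction was -0.63 in the largest clusters, with adjusted p = 0.744, and the call was not made there.

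Against excitatory neurons, *EYA1*, a phosphatase and transcription cofactor, and *ARHGAP24*, which inactivates RAC, had the more positive difference in oligodendrocytes. *EYA1* stood at 47.8 against 7.83 CPM in oligodendrocytes and 1.82 against 5.85 in neurons (interaction 4.29, SE 0.54, adjusted p = 0.00551), and *ARHGAP24* at 883 against 200.4 and 29.3 against 43.5 (interaction 2.69, SE 0.33, adjusted p = 0.00551). By value both were above control in oligodendrocytes and below it in neurons. *DSCAML1* and *PIGH* had the more negative difference in oligodendrocytes, with 67.7 against 408 and 253 against 358 for *DSCAML1* (interaction -2.0, SE 0.28, adjusted p = 0.0098), and an interaction of -2.12 for *PIGH*. For *FAM109A*, an endosomal protein, the interaction of -1.92 became 0.53 in the largest clusters (adjusted p = 0.754).

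**Figure D5:**
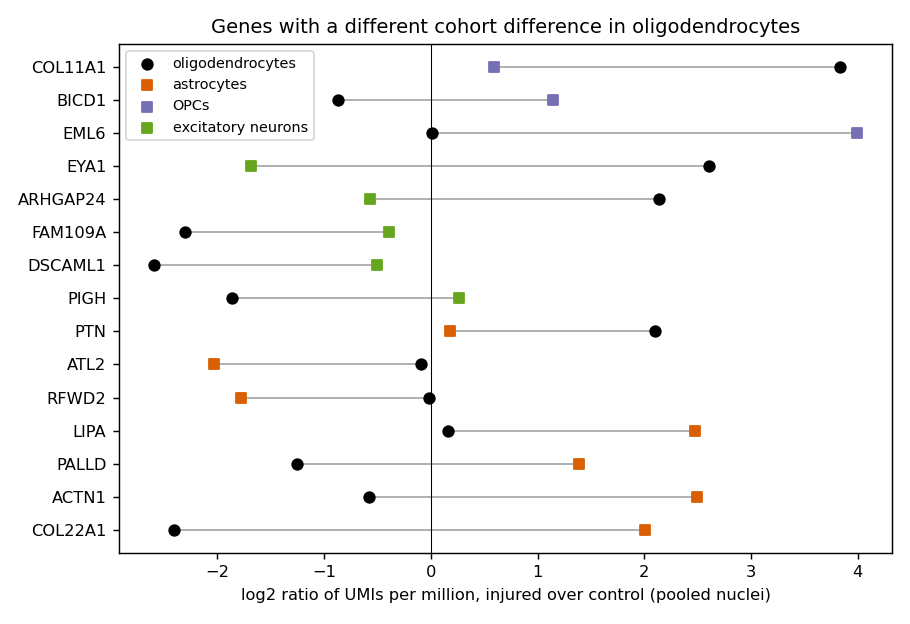
Log2 ratio of the pooled level in injured over control nuclei (horizontal axis) for the 15 genes named from the cell type tests, with black circles for oligodendrocytes and colored squares for the cell type compared. The gray line is the gap between the 2 cell types, and for *PTN*, *ATL2*, *RFWD2*, *COL11A1*, *EYA1* and *ARHGAP24* the oligodendrocyte value lies to the right.

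Over all genes, the interferon list included, 459 of 7495 genes with at least 100 UMIs in injured oligodendrocytes differed between the injured animals by a fold of at least 2 with separate counting intervals, and 45 by a fold of at least 4, of which 15 were on the interferon list. These are single animals compared by counting error only, with no replicate. Replicate 2 was highest in 252 of the 459 genes, replicate 1 in 116 and replicate 3 in 91. *TACR3*, the receptor of neurokinin B, had the largest ratio, with 82.8, 128 and 2.38 CPM in replicates 1, 2 and 3 and 54 in control. Replicate 3 was thus almost without it, while in all other nuclei the ratio between animals was 1.47. *RAMP1*, a partner of calcitonin receptors, was low in replicate 2 alone (91.6, 12.8 and 91.2, 99.4 in control), and *IRS1*, which relays insulin signals, was high there alone (5.29, 42.1 and 9.54, 18 in control).

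*HBB*, the beta chain of hemoglobin, was highest in replicate 3 (17.2, 22 and 187 CPM, 1.57 in control). Hemoglobin is made by red cells, and its level in the other nuclei of the libraries was 55.2, 142 and 74.2. The interferon genes *OAS3* (21.1, 66 and 6.56) and *IDO1* (52, 232 and 25.6) and the immune checkpoint ligand *CD274* (16.7, 37.6 and 4.77) were highest in replicate 2 and lowest in replicate 3. So were *PARP15*, a poly-ADP-ribose polymerase family member (11, 33.4 and 2.98), and *SYN3*, a synapsin of neurons (110.1, 228 and 35.2, 40.7 in control). These 5 genes had ratios between the animals of 10.1, 9.06, 7.88, 11.2 and 6.49 in oligodendrocytes. Wide ranges were not limited to oligodendrocytes, as *IDO1* ranged from 5.35 to 701 CPM and *CD274* from 5.83 to 63.5 CPM among the injured animals in OPCs.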

How the data were processed

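The deposited files hold raw UMI counts per gene and nucleus, which the authors made with Cell Ranger 3.1.0 on the calJac3 assembly with Ensembl annotation, together with their filters and cluster names for each cohort. Doublets were removed with Scrublet in the injured cohort and by genes per nucleus in control. Counts were summed over the oligodendrocytes of each library. Of 32323 genes listed for the injured cohort, the 16383 also listed for control were used, and the others held 0.285% of injured oligodendrocyte UMIs. All 16383 genes listed for control had a UMI there, whereas 21390 of the 32323 listed for injured did. Of the genes listed for injured only, 1790 had a UMI in injured oligodendrocytes.

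The sums were tested in R 4.3.3 with edgeR 4.0.16 (filterByExpr, TMM, quasi-likelihood test, Benjamini-Hochberg adjustment) and, as an alternative, DESeq2 1.42.0. Differences between cell types were tested as the interaction of cell type and cohort with library as a block. The scripts were tested on simulated data. The p-values rest on the spread among 3 injured animals, and intervals and floors cover counting error only.

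Genes were named as examples of 30 fixed lists, as the 10 largest called rises and falls with at least 10 UMIs in each cohort and all animals on 1 side, as the 5 largest interactions each way with at least 10 UMIs in each group, as the 10 largest ratios between injured animals, and as RTN4 and IGFBP3. A few genes that the rule or the lists hold are not reported here. The members and lists were chosen with earlier results of these data known. Gene neighbours came from a RefSeq annotation of a newer assembly, and none of its coordinates are printed. Alternatives were another scaling, no filter, thinned nuclei, other filters on nuclei and each injured animal left out.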

Additional observations from a re-analysis of the deposited data

Results flagged for a closer look

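The difference between the cohorts was itself different in oligodendrocytes and in another cell type for 19 genes (interaction on the log2 scale, oligodendrocyte change minus the other, edgeR quasi-likelihood test with adjusted p below 0.01), of which the 15 with at least 10 UMIs in every group compared are given. Against OPCs the values were 3.18 for *COL11A1*, -2.05 for *BICD1* and -4.0 for *EML6*. Against astrocytes they were 1.96 for *PTN*, 1.92 for *ATL2*, 1.74 for *RFWD2*, -2.39 for *LIPA*, -2.66 for *PALLD*, -2.96 for *ACTN1* and -4.50 for *COL22A1*. Against excitatory neurons they were 4.29 for *EYA1*, 2.69 for *ARHGAP24*, -1.92 for *FAM109A*, -2.00 for *DSCAML1* and -2.12 for *PIGH*. In the largest cluster of each cohort *ACTN1*, *FAM109A*, *BICD1* and *EML6* were no longer past that limit (adjusted p = 0.744, 0.754, 0.0194 and 0.0154). In a newer annotation *PIGH* overlaps *PLEKHH1*, *PALLD* overlaps *CBR4*, *DDX60L* and unnamed loci, and *COL11A1*, *BICD1*, *EML6*, *ACTN1*, *PTN*, *ATL2*, *COL22A1* and *EYA1* overlap unnamed loci, so the reads of these genes are uncertain.

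Of the list genes, 5 were not among those listed for control and so entered no comparison, yet had UMIs in injured oligodendrocytes. Over all genes there were 1790 of this kind, so the counts of rises and the list medians leave such genes out. *PSMB8* had 51 and *CXCR4* had 9, and the other 3 had more. *GBP1*, a GTPase that interferon induces, had 1002 UMIs, *C1QB*, a complement gene of microglia, had 317, and *CXCL10*, a chemokine that interferon induces, had 210. In CPM, *GBP1* stood at 191, 212 and 61.8 in injured replicates 1, 2 and 3, *CXCL10* at 21.5, 62.6 and 14.3 and *C1QB* at 65.4, 46.1 and 39.8. Replicate 2 was highest in the interferon genes and replicate 1 in *C1QB*.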

How the results depend on the processing

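The 72 genes called higher became 170 with DESeq2, 167 without a filter on low counts and 353 at an adjusted p below 0.05, and 36 to 147 with 1 injured animal left out (36 without replicate 1). The 18 called lower became 34, 37 and 149 under those settings, 32 with nuclei of at most 2500 genes, 39 without mixed nuclei (2 or more markers of another cell type), 11 among genes with a UMI in both cohorts and 12 to 36 with 1 animal left out. In the largest cluster of each cohort, a setting chosen after seeing the data, there were 114 and 65. Those of the 90 that a setting tested kept their direction in it. Compact myelin calls (1) became 2 with DESeq2, 2 with nuclei thinned to 1000 UMIs, 4 at 0.05 and 1 to 3 with an animal left out. Interferon calls (1) became 17 with DESeq2, 2 with at most 2500 genes, 5 without mixed nuclei, 3 in the largest clusters, 17 at 0.05 and 0 to 23 with an animal left out. MHC class I calls (6) ranged from 2 to 7 and cytoskeleton and matrix calls (4) from 2 to 5 with an animal left out. The cause of these shifts was not tested.

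Interactions against OPCs (4) became 2 with only both cell types in the fit, 10 in the largest clusters, 34 at 0.05 and 0 to 27 with an animal left out. Those against astrocytes (10) became 18 thinned, 61 in the largest clusters, 71 at 0.05 and 1 to 34, and those against excitatory neurons (5) became 10 with both types only, 17 thinned, 10 in the largest clusters, 82 at 0.05 and 3 to 92. The difference in share of nuclei (-4.64 percentage points) was -1.11 with at most 2500 genes, -1.43 without microglia and 1.99, reversed, with at least 1000 UMIs, and ranged from -5.17 to -4.03 with an animal left out. The 459 genes that differed between injured animals became 45 at a fold of 4, 250 thinned, 184 with at least 300 UMIs, 284 without mixed nuclei and 108 to 194 with an animal left out. Fitted values that changed sign were those of *RTN4* (-0.044 without mixed nuclei and -0.062 in the largest clusters), *RBFOX3* (1.38 and 1.89) and *ST18* (-0.23 to 0.0020 with an animal left out), none of them called over all nuclei.

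No paired analysis was possible because the labels give the injured and control libraries no shared replicate numbers and control is 1 library. Depth limits genes with few control UMIs: of the 72 rises, 1 had no control UMI and 9 had 1 to 3.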
